A study of Mus musculus with 2 samples.

Results

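The Id genes (Id1, Id2, Id3 and Id4), the BMP ligand genes Bmp2, Bmp4, Bmp5 and Bmp7 and the receptor genes Bmpr1a and Bmpr2 are 10 of the 21938 protein-coding gene records that GENCODE M21 places on named chromosomes, and they held 25 of the 7733 EP300 summits analysed. Together they take in the best known targets, the signals and the receptors of 1 pathway. The 10 genes were chosen from earlier results on these same EP300 peaks, so their summit counts and signals are a description and carry no test. The data are EP300 ChIP-seq (sequencing of the DNA that an antibody to EP300 brings down with the protein) from stomach of B6NCrl mice at postnatal day 0, with the sex not collected. The 2 libraries form 1 group, with no other tissue, stage, genotype or treatment. Biosample and donor labels are identical for the pair, so a difference between animals may be missing from their spread. Peak lists hold no read counts, and the depth behind each value is unknown.

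BMPs are secreted ligands that bring type I receptors such as Bmpr1a together with the type II receptor Bmpr2. The receptors phosphorylate SMAD1, SMAD5 and SMAD9, which enter the nucleus with SMAD4, and the Id genes are among the classical genes switched on in many cell types. Id proteins have a helix-loop-helix domain without the basic DNA-binding stretch, and they bind E proteins and keep them off DNA. In the developing stomach BMP signalling takes part in the exchange between mesenchyme and epithelium. EP300 is a histone acetyltransferase recruited to active enhancers and promoters, and its peaks are widely used to map such elements.

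A summit is the position of highest signal in a peak, and a gene was given every summit of the optimal set that lay in its body or within 100 kb of its start. The optimal set holds the peaks kept by the submitters for reproducibility, by the irreproducible discovery rate (IDR). Signal is the peak caller's own value, on a separate scale in each list. It is given for the pooled reads, and then for the strongest peak of each replicate list with its summit inside the same interval. Coordinates are 1-based on mm10, and negative distances or "upstream" refer to the direction of transcription.

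The Id genes held 21 optimal summits and all 4 had at least 1, whereas the 4 ligand genes held none and the 2 receptor genes held 2 each. Id1 had 12, Id2 had 5, Id3 had 3 and Id4 had 1. Over all 21938 genes, 10941 (49.9%) had at least 1 summit by the same rule, so the 6 of 10 members with a summit (60%) stood near that level. The median number of summits was 4 over the Id genes, 0 over the ligands and 2 over the receptors, against 0 over all genes. At least 3 summits were found for 20.4% of all genes, at least 5 for 8.28% and at least 12 for 0.479%, and these shares give the places of Id3, Id2 and Id1. Since this pattern chose the genes, nothing is read from these shares about the pathway.

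**Figure D1:**
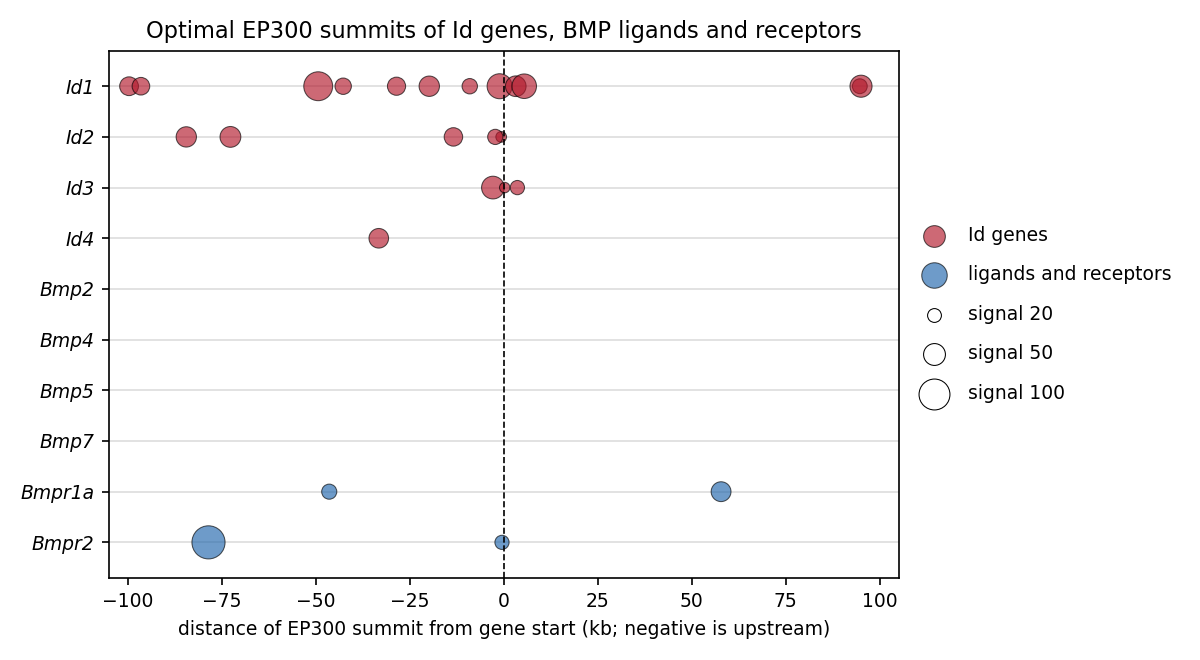
Optimal EP300 summits of the 10 genes by distance from the gene start (x axis, kb, negative upstream; 1 row per gene), with circle area proportional to pooled signal, Id genes in red and ligands and receptors in blue. Id1 has 12 summits, the rows of Bmp2, Bmp4, Bmp5 and Bmp7 are empty, and the largest circle is the Bmpr2 summit with a signal of 114.9.

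**Figure D2:**
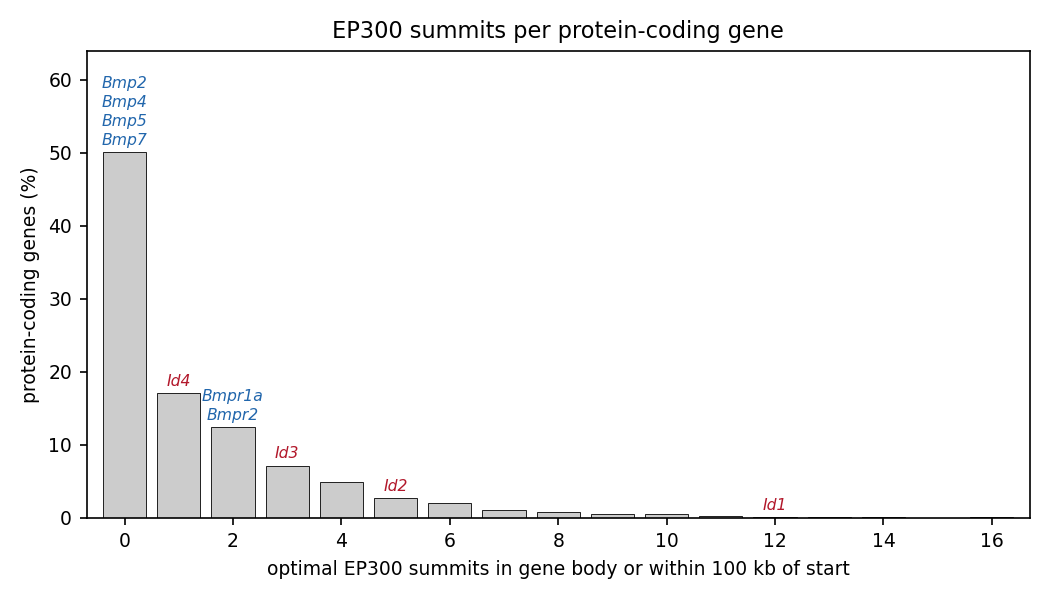
Share of protein-coding genes (y axis, percent) by the number of optimal summits in the body or within 100 kb of the start (x axis, shown to 16), with each of the 10 genes written above its own number. Bmp2, Bmp4, Bmp5 and Bmp7 stand at 0 with 50.1% of all genes, and Id1 stands at 12.

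The sequences at 7 of these summits are shown because they carry what the results turn on. They cover the Id1 and Id3 summits with a spaced BMP response element, the strongest summit within 10 kb of the Id1 start, the strongest Id2 summit, the sole Id4 summit and the receptor summits nearest to their own gene. Each is a window of 75 bp on both sides of the summit, from the mm10 assembly, printed 5′ to 3′ on the strand of the gene. In the sequences of Id1, Id3, Bmpr1a and Bmpr2 the capitals mark GGCGCC and GTCT on either strand (GTCT on the other strand reads AGAC), the letters bound by SMAD1 and SMAD5 and by SMAD4, and the Bmpr1a window has neither. In those of Id2 and Id4 they mark TGANTCA, the AP-1 motif, and GGAATG, the TEAD motif, on either strand. At Id2 the AP-1 match overlaps a TEAD match on the other strand. Other motifs searched are left unmarked, so the capitals do not divide the motifs between the genes. GGAATG also lay 3 bp before the Id1 summit 3.18 kb downstream. GGCGCC also lay 77 bp before the Id4 summit, outside the printed window.
Id1, 3.18 kb downstream of the start, chr2:152739356-152739506, plus strand: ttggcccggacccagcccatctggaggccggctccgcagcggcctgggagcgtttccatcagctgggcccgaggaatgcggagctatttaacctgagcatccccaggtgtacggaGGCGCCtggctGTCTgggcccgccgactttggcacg
Id3, 2.88 kb upstream, chr4:136140537-136140687, plus strand: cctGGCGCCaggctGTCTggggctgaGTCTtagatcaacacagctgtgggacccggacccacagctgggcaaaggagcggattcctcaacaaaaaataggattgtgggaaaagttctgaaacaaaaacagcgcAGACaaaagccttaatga
Id1, 1.11 kb upstream, chr2:152735065-152735215, plus strand: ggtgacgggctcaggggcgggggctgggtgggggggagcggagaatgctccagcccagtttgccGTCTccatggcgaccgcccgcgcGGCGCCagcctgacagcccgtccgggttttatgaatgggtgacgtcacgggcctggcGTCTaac
Id2, 72.7 kb upstream, chr12:25169753-25169903, minus strand: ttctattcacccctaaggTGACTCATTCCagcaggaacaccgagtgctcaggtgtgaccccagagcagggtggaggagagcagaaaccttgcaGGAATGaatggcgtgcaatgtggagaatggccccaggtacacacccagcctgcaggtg
Id4, 33.2 kb upstream, chr13:48227911-48228061, plus strand: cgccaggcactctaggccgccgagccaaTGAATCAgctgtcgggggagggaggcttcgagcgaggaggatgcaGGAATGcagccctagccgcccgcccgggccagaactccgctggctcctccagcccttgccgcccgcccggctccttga
Bmpr1a, 57.8 kb into the gene, chr14:34445490-34445640, minus strand: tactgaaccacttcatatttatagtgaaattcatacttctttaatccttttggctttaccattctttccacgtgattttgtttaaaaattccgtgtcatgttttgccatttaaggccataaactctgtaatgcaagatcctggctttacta
Bmpr2, 479 bp upstream, chr1:59762846-59762996, plus strand: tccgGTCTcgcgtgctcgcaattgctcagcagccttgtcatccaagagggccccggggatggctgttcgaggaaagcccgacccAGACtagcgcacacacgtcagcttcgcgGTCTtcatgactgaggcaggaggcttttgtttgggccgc

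Id1 and Id3 each had a summit with the spaced BMP response element, GGCGCC followed after 5 bases by GTCT, which is known from BMP-responsive enhancers as a joint site of SMAD1 or SMAD5 with SMAD4. It was found in 8 of the 7733 windows of 100 bp on both sides of an optimal summit (0.103%), and 2 of these 8 were the Id1 summit 3.18 kb downstream and the Id3 summit 2.88 kb upstream. In windows of the same length centred 1000 bp away it was found 3 times (0.0388%). The match began 40 bp after the summit at Id1 (chromosome 2, 152739471 to 152739485) and 72 bp before it at Id3 (chromosome 4, 136140540 to 136140554), on the plus strand in both.
Id1: GGCGCCtggctGTCT
Id3: GGCGCCaggctGTCT
The capitals are the letters searched for. The single part GGCGCC lay within 100 bp of 4 of the 21 Id summits and of 575 of all 7733 (7.44%). The part GTCT lay near 15 of the 21 and near 77.0% of all summits, which is close to the background. Of the 4 receptor summits 0 had GGCGCC, 3 had GTCT and 0 had the spaced element. The Id1 summit 1.11 kb upstream had GGCGCC 12 bp after the summit and 5 matches of GTCT, but not at the spacing searched. Other forms of BMP response element were not searched, so this summit is not shown to lack one. The other motifs searched are given with their share of all summits: TGANTCA lay within 100 bp of 4 of the 25 member summits (12.7% of all), GGAATG of 5 (14.2%), the E-box CANNTG of 14 (58.4%) and GGGCGG, the letters bound by SP and KLF factors, of 8 (20.8%). All 4 with TGANTCA were summits of Id2 or Id4. The motifs TGACGT, bound by CREB factors, CCGGAAG, bound by ETS factors, and the CArG box, bound by SRF, were at 5, 1 and 1 (4.75%, 6.0% and 1.77% of all). A match is a sequence description and shows no binding of a SMAD, and these shares were not tested.

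At Id1 (chromosome 2, 152736251 to 152737410, plus strand), 5 summits were nearest to the Id1 start itself and the other 7 to the start of another gene. The summit 1.11 kb upstream (peak 152734860 to 152735419, intergenic) had a pooled signal of 65.5, and reached 36.5 in replicate 1 and 25.8 in replicate 2. It ranked 505 of the optimal peaks. The summit 5.43 kb downstream (152741401 to 152741960, intergenic) had 63.2, 28.5 and 26.8, in the same order. Both libraries were thus high at these sites, with the first of them higher in replicate 1.

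The summit 3.18 kb downstream of Id1 with the spaced element (152739151 to 152739710, intergenic) had a signal of 44.7, with 23.1 in replicate 1 and 21.04 in replicate 2. Further upstream, the summit at 19.8 kb had 43.5, 16.5 and 27.1. The summit at 9.05 kb had 24.8, 10.5 and 21.2. At these last sites replicate 2 was the higher library, by 0.72 and 1.01 on the log2 scale. All 5 summits nearest to the Id1 start lay outside protein-coding genes. They were also in the conservative IDR set, the smaller of the submitters' IDR sets. That set held 18 of the 25 member peaks and 61.3% of all optimal intervals.

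The strongest summit in the Id1 window, with a pooled signal of 87.5 and replicate signals of 47.1 and 39.6, lay 49.3 kb upstream and 128 bp from the start of Mcts2, a retrogene within an intron of H13, which encodes a signal peptide peptidase. Also in H13 were the summits 42.7 kb upstream (28.1, 20.2 and 5.10) and 28.5 kb upstream (34.6, 20.8 and 9.03). The last 2 were low in replicate 2 (log2 ratios of replicate 2 to replicate 1 of -1.98 and -1.20) and were not in the conservative set. At the far edge, summits 99.6 and 96.5 kb upstream (37.0 and 32.5) were nearest to Rem1, a small GTPase of the RGK family. Overlapping summits 94.66 and 94.98 kb downstream (23.1 and 51.1) were nearest to Bcl2l1, which encodes the survival factor BCL-XL. The next optimal summit beyond the window lay 321.1 kb from the Id1 start, with a signal of 20.2. The summits at both edges of the Id1 window thus lay nearest to other genes.

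At Id2 (chromosome 12, 25093799 to 25097140, minus strand) all 5 summits were nearest to the Id2 start and all lay upstream of it. The strongest lay 72.7 kb upstream (25169548 to 25170107), with a pooled signal of 45.4, 17.6 for replicate 1 and 26.7 for replicate 2. A second lay 84.4 kb upstream (25181280 to 25181839), with 43.3, 21.8 and 20.6. Both lay in the long non-coding gene Gm36287. The first held TGANTCA, also found at the second and at the summit 13.4 kb upstream (25110251 to 25110810, intergenic).

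The summit at 13.4 kb had 35.8, with 24.9 in replicate 1 and 12.1 in replicate 2, a log2 ratio of -1.04. Nearer to the start, the summit 2.26 kb upstream had 24.3, with 7.90 and 11.5. The summit 691 bp upstream had 11.97, with 11.1 in replicate 1 and no peak summit of replicate 2 inside the interval. The nearest peak of replicate 2 lay 448 bp away with 8.77. The stronger Id2 summits thus lay 13.4 kb or more from the start. With a rank of 7259, the summit nearest to the Id2 start was among the weakest optimal peaks. Neither it nor the one at 2.26 kb was in the conservative set. That set held another Id2 peak, 1.035 kb into the gene, with 23.8, 11.5 and 17.3. A pooled peak 82 bp into the gene, with 21.5, was in neither set.

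Id3 (chromosome 4, 136143497 to 136145755, plus strand) had its 3 summits within 3.61 kb of the start, all nearest to it. The summit with the spaced element, 2.88 kb upstream (136140332 to 136140891, intergenic), had a pooled signal of 54.2, 32.3 for replicate 1 and 22.8 for replicate 2. The summit 244 bp into the gene, in a UTR exon, had 11.4, with 19.1 in replicate 1 and 9.57 in replicate 2. The value of 19.1 belongs to another replicate 1 summit in the interval. The replicate 1 summit nearest to the optimal one, 80 bp away, had 4.98. The summit 3.61 kb downstream had 21.35, with 20.1 in replicate 2 and no summit of replicate 1 inside the interval. Only the first of the 3 was above the median of all optimal peaks (30.2).

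Id4 (chromosome 13, 48261228 to 48266026, plus strand) had a single summit, 33.2 kb upstream (48227706 to 48228265). Its pooled signal was 40.2, with 23.4 for replicate 1 and 24.4 for replicate 2, so the libraries differed by 0.06 on the log2 scale. It lay outside protein-coding genes, within the non-coding genes A330033J07Rik and Gm36346, and was in the conservative set. Its window held TGANTCA and GGAATG. No optimal summit lay within 10 kb of the Id4 start. Among all genes 15.7% had a summit within 10 kb of the start, and among the members Id1 (4 summits), Id2 (2), Id3 (3) and Bmpr2 (1) did.

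The receptor genes had 4 summits, of which 2 were nearest to their own start. Bmpr1a, a type I receptor (chromosome 14, 34410734 to 34503341, minus strand), had a summit in its own intron, 57.8 kb from the start (34445285 to 34445844). Its signal was 41.2, with 25.3 in replicate 1 and 14.1 in replicate 2. The other Bmpr1a summit lay 46.4 kb upstream in an intron of Ldb3, a protein of the muscle Z-disc, with 23.9, 13.4 and 11.1. For Bmpr1a no summit lay at the promoter.

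Bmpr2, the type II receptor (chromosome 1, 59763400 to 59879014, plus strand), had a promoter summit 479 bp upstream (59762641 to 59763200). Its signal was 21.1, with 17.4 in replicate 1 and 7.80 in replicate 2, a log2 ratio of -1.16, and it was not in the conservative set. The other Bmpr2 summit was the strongest of all 25 member summits (114.9, with 36.1 and 70.1), but lay 78.5 kb upstream and 88 bp from the start of Nop58, a core protein of small nucleolar ribonucleoproteins. By position it is a promoter peak of another gene.

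Id and receptor summits overlapped in strength. The 21 Id summits ranged from 11.4 to 87.5 with a median of 37.0, and the 4 receptor summits from 21.1 to 114.9 with a median of 32.6. Of the Id summits 14 and of the receptor summits 2 were above the median of all optimal peaks. Among summits nearest to their own gene the medians were 41.8 for the 14 of the Id genes and 31.2 for the 2 of the receptors. The ratio of the first pair of medians, 1.14, turned below 1 in the conservative set (0.677), so the order of the groups in strength depended on the peak set.

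Between the libraries, the member summits varied about as much as other peaks. Both libraries had a peak inside 23 of the 25 intervals, and the absolute log2 ratio had a median of 0.54, against 0.50 over 6865 optimal peaks with both. It was above 1 at 6 of the 23 (26.1%) and at 19.3% of all. The median log2 ratio of replicate 2 to replicate 1 was -0.25 for the members and -0.02 for all optimal peaks.

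**Figure D3:**
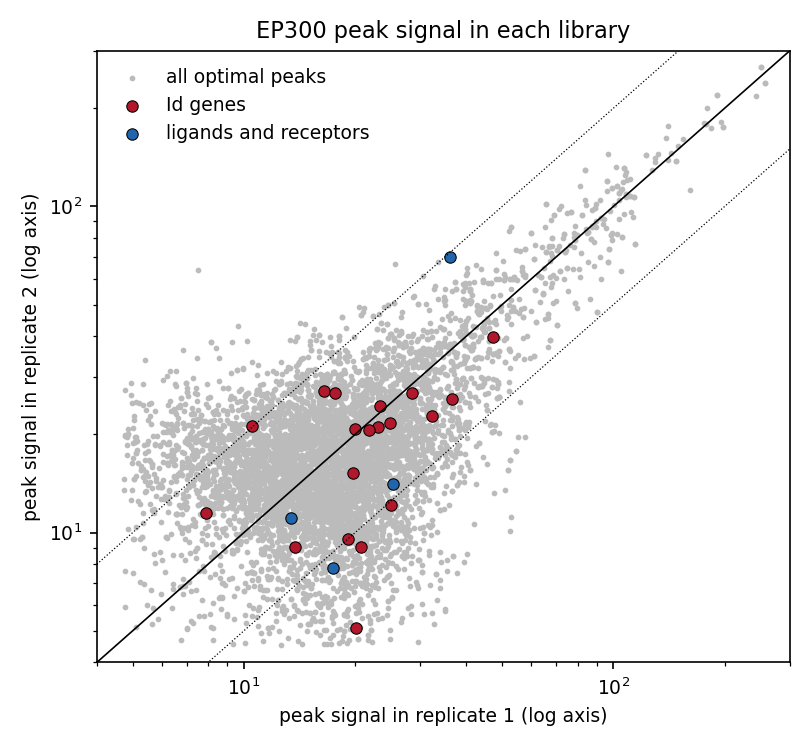
Signal of the strongest peak of replicate 1 (x axis, log scale) and of replicate 2 (y axis, log scale) inside each optimal peak, in grey for all peaks, in red for Id summits and in blue for receptor summits; the solid line marks equal signal and the dotted lines a log2 ratio of 1 and -1. The coloured points lie within the grey cloud, and 6 of 23 fall beyond the dotted lines.

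The ligand windows held peaks outside both IDR sets alone. Bmp2, Bmp4, Bmp5 and Bmp7 encode secreted BMPs. In the pooled list of 300000 peaks the strongest peak in the Bmp2 window (chromosome 2, gene 133552159 to 133562885) lay 89.1 kb upstream, with a pooled signal of 22.4, 14.3 for replicate 1 and 9.93 for replicate 2. For Bmp4 (chromosome 14, 46383520 to 46390669) it lay 90003 bp downstream, with 21.5, 12.9 and 7.59. For Bmp5 (chromosome 9, 75775364 to 75900310) it lay in an intron 25.7 kb from the start, with 16.6, 15.1 and 4.65.

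For Bmp7 (chromosome 2, 172868012 to 172940321) the strongest pooled peak lay 86.7 kb upstream in an intron of Rbm38, which encodes an RNA-binding protein, with 18.8, 7.42 and 9.29. These 4 values, 16.6 to 22.4, ranked between 9461 and 20962 in the pooled list. Over the 21145 genes with a pooled peak in their window, the strongest peak had a median of 26.8 and a lower quartile of 16.7. All 4 ligand values were below that median, and the Bmp5 value was also below the quartile. Those genes include the ones with an optimal summit, which the ligands lack, so the lower values follow the choice of genes and carry no separate support. The strongest peaks of the 4 Id windows ranged from 40.2 to 87.5, an order that follows the values by which the genes were chosen.

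Optimal peaks lay close outside the window for Bmp2 and Bmp7, but not for Bmp4 and Bmp5. The nearest beyond 100 kb of Bmp2 lay at 108.5 kb with a signal of 29.2, and that of Bmp7 at 122.8 kb with 41.3, and each was nearest to the start of that gene. Those of Bmp5 and Bmp4 lay at 363.2 and 431.4 kb. Just inside the limit the outermost member summits were those of Id1 at 99.6, 96.5 and 94.98 kb. A wider window would therefore have given Bmp2 and Bmp7 a summit each.

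**Figure D4:**
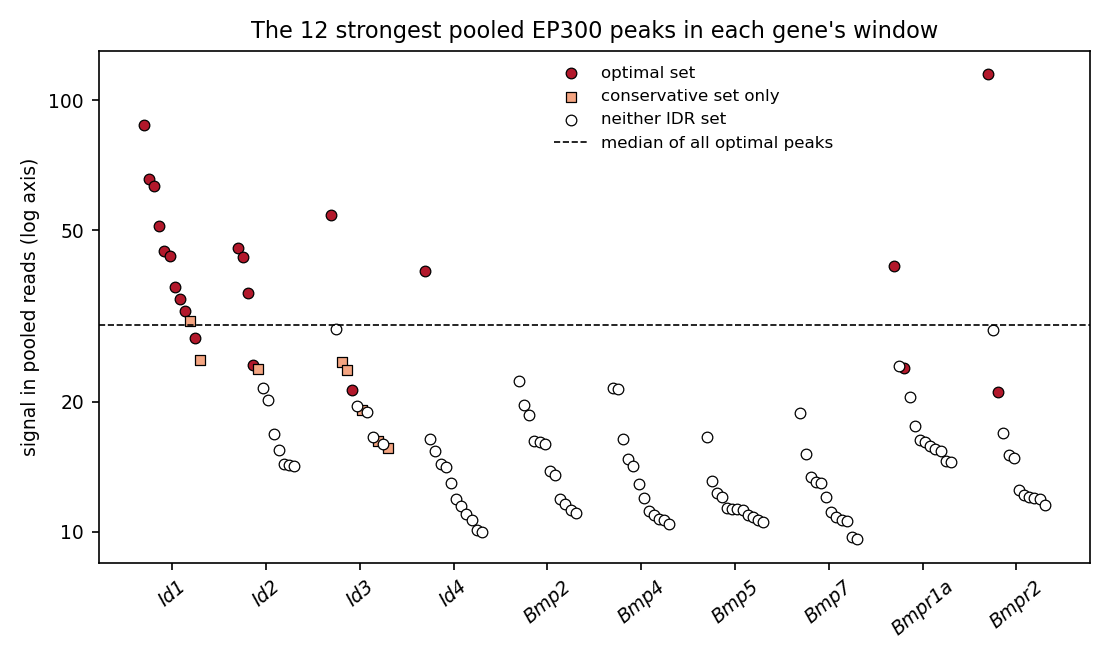
Signal in the pooled reads (y axis, log scale) of the 12 strongest pooled peaks in the window of each gene (x axis), filled red where the peak is in the optimal set, as an orange square where it is in the conservative set alone and open where it is in neither; the dashed line is the median of all optimal peaks, 30.2. The 4 ligand genes have open circles alone, at 22.4 and below.

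The number of neighbouring genes varied within the groups and was highest at Id1. Other protein-coding starts within 100 kb numbered 4 for Id1, 3 for Id3 and 0 for Id2 and Id4. The ligands had 0 for Bmp2, 1 for Bmp4, 1 for Bmp5 and 3 for Bmp7, and the receptors had 3 for Bmpr1a and 2 for Bmpr2. Among all genes with 0 to 2 such neighbours 36.5% had a summit, and among those with 3 to 5 it was 52.4%. GC content within 100 bp of the summit had a median of 55.2% for Id summits, 46.0% for receptor summits and 50.7% for all optimal summits. The part of these properties in the counts was not tested.

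Counts depended on the peaks taken. In the conservative set, where 48.2% of all genes had a summit, Id1 had 16, Id2 had 4, Id3 had 7, Id4 had 1, Bmpr1a had 2, Bmpr2 had 1 and the ligands had 0. Of the 12 optimal Id1 peaks 9 were in the conservative set, as were 61.3% of all optimal intervals. The conservative set added 7 others at Id1. Of these 7, 5 had their summit within 377 bp of an optimal summit, and the other 2 overlapped each other 84.4 and 84.6 kb downstream in an intron of Bcl2l1. Summits chained within 560 bp formed 11 places at Id1 in the optimal set and 10 in the conservative set. At Id3 they formed 3 and 4. The larger counts of the conservative set at Id1 and Id3 were therefore in large part overlapping peaks at shared places.

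Among the 7737 strongest peaks of replicate 1 alone, 54.6% of all genes had a summit. So did Bmp2 (14.3, 89.1 kb upstream), Bmp5 (15.1, 25.7 kb into the gene) and Bmp7 (16.3, 60.04 kb upstream, in a UTR exon of another gene). Among the 7737 strongest peaks of replicate 2 alone the share was 53.7%, and of the ligands Bmp7 had 1 summit, 2.45 kb into the gene (13.7). No ligand peak was among the strongest of both libraries at the same place: the Bmp2 and Bmp5 peaks ranked 20089 and 284820 in replicate 2, and neither Bmp7 peak had a summit of the other library inside it. Bmp4 had 0 in both. Id1 had 17 summits in replicate 1 alone and 11 in replicate 2 alone.

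The rest of the pathway, 43 further genes in 6 roles, had a summit for 23 (53.5%, against 49.9% of all genes), with a median of 1 summit. Of 10 further ligands 2 had one, Bmp8b with 4 and Bmp10 with 2, and their strongest peaks (71.8 and 34.2) were nearest to Trit1 and Antxr1. Of 5 further receptors 3 had one. Acvr2b had 2 (strongest 90.9, nearest to Oxsr1) and Acvrl1, a receptor of endothelial cells, had 2 (41.4, 17.4 kb from its own start).

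The SMADs had a summit for 5 of 6. Smad7, an inhibitory SMAD, had 3, the strongest 519 bp from its start (38.6), and Smad9, a receptor-activated SMAD, had 3 (35.3, nearest to Supt20). Smad6, the other inhibitory SMAD, named after its value was seen, had 1, with 31.9 at 32 bp from its start. Of the 13 antagonists and modulators 6 had a summit. Twsg1 and Chrd, which encodes the BMP antagonist chordin, had 3 each, and the strongest of Chrd (32.8) was nearest to Thpo. A summit nearest to their own start was found for 4 of the 6 SMADs and 3 of the 13 antagonists.

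Of 6 further targets 4 had a summit, among them Atoh8, a bHLH factor, with 2 (47.6, 18.7 kb from its own start), and Msx2, a homeobox factor, with 2 (34.0, 81.2 kb from its own start). All 3 genes of E proteins, the partners of Id proteins, had one: Tcf3 had 4 (74.7, 226 bp from its start), Tcf4 had 2 (13.9) and Tcf12 had 1. In all, 14 of the 43 genes had a summit nearest to their own start. Over all protein-coding genes the share was lower, at 18.3%, and the difference was not tested. Among the members it was 4 of 4 Id genes, 0 of 4 ligands and 2 of 2 receptors, a contrast that follows the choice of the genes.

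Genes most like Id1 were sought by the number of summits in 4 bands of distance (0 to 1, 1 to 10, 10 to 50 and 50 to 100 kb from the start), where Id1 had 0, 4, 4 and 4, among genes over 200 kb from it. By the sum of differences over the bands, Gm42715 (0, 3, 4 and 4) and Abca7 (0, 3, 4 and 4), a lipid transporter, differed by 1 summit, and Slc34a3 (0, 4, 4 and 2), a phosphate transporter, by 2. Their summed signals were 556.8, 364.3 and 360.7, against 535.7 for Id1.

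Of the tissue markers, 5 of 7 genes of the gastric epithelium, 4 of 6 of the mesenchyme and smooth muscle and 3 of 4 of the squamous forestomach had a summit, as did 1 of 3 liver genes and 0 of 3 forebrain genes, where the share over all genes was 49.9%. These markers are not independent: Krt8 and Krt18 shared their strongest peak, nearest to Krt78, and Krt13 and Krt15 shared theirs, nearest to Krt32. Summits nearest to their own start were found for 4 of the 7 epithelial genes and 4 of the 6 mesenchymal and muscle genes. Among the 4 squamous genes it was 1, Trp63, and among the liver and forebrain genes 0. With so few genes the counts were not tested and do not settle the tissue. Peak lists hold no expression, so which cells of the stomach gave the Id summits was not measured.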

How the data were processed

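EP300 ChIP-seq peak lists from 2 libraries of newborn mouse stomach were used as deposited, on mm10 per the labels: 1 list per replicate, a pooled list, and the optimal and the conservative IDR set. The signal (column 7) is the authors' own value, on a separate scale in each list. The deposited IDR sets carry a score of up to 1000, and the deposited q column, kept as a score, was not used. The summit offset, another unit (bp from the peak start), is the authors' too. Which peak caller and aligner made the lists is not given in the sources used here.

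Summits (column 2 plus column 10, made 1-based) were assigned to genes of GENCODE M21 with Python 3.11.15, pandas 2.3.3 and pysam 0.24.0, and 4 optimal peaks off the named chromosomes were left out. Sequence came from the RefSeq GRCm38.p6 assembly, which holds the mm10 chromosomes. Motifs were searched on both strands within 100 bp of the summit, 10 in all. The window and motif steps were tested on simulated data. The members and lists were chosen with earlier results of these data known, and no test was run, since all values come from 1 group. Named are all members, up to 2 genes of each pathway role with the most summits (ties by signal), the genes with the nearest start and the 3 genes most like Id1; values of a few genes under this rule are not reported here. The 11 alternatives were other peak sets, windows, starts and assignments, and a count is said to move where it changes by over 1.5 times.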

Additional observations from a re-analysis of the deposited data

How the results depend on the processing

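With each alternative taken in turn, the 4 Id genes had summits in every setting except the 10 kb window, which left Id4 without, and Bmp4 had 0 in all. The Id genes held 9 summits with the 10 kb window, against 21. The ligand and receptor genes held 2, against 4, in the stronger part of the optimal set, with the 10 kb window and with each summit given to its nearest start. With 1 library alone they held 4 to 8, the Id genes 22 to 25, and 7 to 9 of the 10 genes had a summit. The ratio of median signals, Id over ligand and receptor summits, was 1.14 and fell below 1 in the conservative set (0.677), the stronger part (0.565), the strongest pooled peaks (0.998) and the 10 kb window (0.797); with 1 library alone it was 1.23 to 1.36. The cause was not tested, and 2 to 4 receptor summits stood behind each of those 4 values. The share of all genes with a summit was 49.9%, 20.1% with the 10 kb window, 18.3% with nearest starts and 53.7 to 54.6% with 1 library alone. Within 50 bp of the summit, GGCGCC was at 2 member summits and GTCT at 11, against 4 and 18, and the spaced element at 0, against 2; within 250 bp the last stayed at 2. No paired analysis was possible because the 2 libraries form 1 group. Depth is unknown, so a gene without an optimal summit had no peak past the threshold, which does not show that EP300 was absent.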

Other observations

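The spaced BMP response element was also found near optimal summits outside the members, of which 5 are described here, named after their values were seen. They were nearest to Fzd1, a Wnt receptor (signal 28.1, 42 bp from the start), Pnisr (25.4, 486 bp), Srsf3, a splicing factor (49.5, 271 bp), Ssbp2 (66.01, 463 bp) and Ndst1, an enzyme of heparan sulphate synthesis (32.7, 26.1 kb). Thus 4 of these 5 lay within 1 kb of a protein-coding start, whereas the Id1 and Id3 matches lay at summits 3.18 and 2.88 kb from theirs. The matches at Srsf3, Ssbp2, Pnisr and Fzd1 differ from those of Id1 and Id3 in the 5 bases between the capitals.
Srsf3: GGCGCCcctttGTCT
Ssbp2: GGCGCCccgaaGTCT
Pnisr: GGCGCCatcttGTCT
Fzd1: GGCGCCccccaGTCT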
